A study of Homo sapiens with 2 samples.

Results

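Cholesterol and fatty acid synthesis was followed through 34 genes, of 24870 genes that had rows in both deposited files, after an shRNA against PSPC1 in A549 cells. The genes were chosen by their roles and not by a measured value, although earlier results of these data were known at that time. They comprise 7 genes of the mevalonate arm, 11 of the squalene and sterol arm, 5 of sterol transport and 7 of fatty acid synthesis. A further 4 encode or control the sterol-regulated transcription factors. The study compared an shPSPC1 library, made from A549 cells in which the shRNA targets PSPC1, with an shLacZ library, in which it targets the bacterial LacZ gene and so serves as the control. A549 is a human lung adenocarcinoma line, and its labelled cell type is non-small cell lung cancer. Both cultures grew in Dulbecco's modified Eagle's medium containing 10% serum and 1% penicillin and streptomycin, and total RNA was taken up in Trizol before Illumina sequencing. How many shRNAs or clones stand behind each library, how long the cells carried the shRNA, and whether the libraries were stranded or poly(A) selected are not given in the sources used here.

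Each group had 1 library, so no difference between the groups has a replicate check, and no test between conditions was possible. Levels are the authors' FPKM (fragments mapped to a transcript, scaled by its length in kilobases and by the library's depth), summed over the transcripts of a gene. The ± behind a level is the half-width of the 95% interval derived from the deposited bounds, which covers error within a library only. Log2 ratios are of shPSPC1 over shLacZ, with 1 FPKM added to both levels, so they understate the differences of genes with low levels. A second measure, estimated fragments, converts FPKM back to fragments with the length of each transcript and then uses 1 length per gene. It depends less on short assembled forms placed in 1 file, but a long assembled form in 1 file weighs more in it, as for NPC1 below. For a gene with the same single transcript in both files, or with transcripts of nearly the same length, the 2 measures are equal or nearly so by construction. Their agreement is then no second check. A gene was called changed by 2-fold or by 1.5-fold when its level was at least 1 FPKM in the higher library, its log2 ratio passed that size and its intervals did not overlap.

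Cells build cholesterol from acetyl-CoA through mevalonate, isoprenoid units, squalene and lanosterol. When sterols in the endoplasmic reticulum run low, SCAP escorts the SREBP transcription factors, the products of SREBF1 and SREBF2, to the Golgi, where they are cut and released to the nucleus, while INSIG proteins hold SCAP back when sterols are plentiful. SREBPs act at sterol regulatory elements together with other factors, among them NF-Y, which binds CCAAT boxes, and oxysterol-activated LXR receptors switch on the exporters ABCA1 and ABCG1 and the ubiquitin ligase MYLIP. SREBP-1c and LXR also drive fatty acid synthesis and desaturation, which supply membrane lipids.

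Promoter sequences were taken from RefSeq on the GRCh38.p14 assembly, from 250 bases before to 50 after the start site, and 29 of the 34 genes had one. ACAT2, FDFT1, SQLE, ABCG1 and FASN had none and were not searched. HMGCS1 is shown because it had the highest ratio by estimated fragments. SREBF2 is shown because it encodes the SREBP that mainly drives cholesterol synthesis, and ABCA1 because it alone passed the 1.5-fold rule by both measures. The MVK promoter is shown because it held 5 CCAAT boxes, the most of the 29 together with that of NSDHL. Capitals mark matches on either strand to 3 motifs. The CCAAT box was searched as the letters CCAAT, which read ATTGG where the box is on the other strand. An E box was searched as CACGTG. For the sterol regulatory element the letters were TCACNCCAC. No 2 matches overlap within these 4 sequences.
HMGCS1 promoter, chr5:43313363-43313662, minus strand: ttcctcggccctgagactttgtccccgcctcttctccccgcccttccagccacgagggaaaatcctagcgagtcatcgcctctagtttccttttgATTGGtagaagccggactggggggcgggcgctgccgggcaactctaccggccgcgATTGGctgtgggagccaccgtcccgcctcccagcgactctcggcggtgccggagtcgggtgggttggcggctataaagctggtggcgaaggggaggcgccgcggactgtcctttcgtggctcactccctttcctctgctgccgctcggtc
SREBF2 promoter, chr22:41832855-41833154, plus strand: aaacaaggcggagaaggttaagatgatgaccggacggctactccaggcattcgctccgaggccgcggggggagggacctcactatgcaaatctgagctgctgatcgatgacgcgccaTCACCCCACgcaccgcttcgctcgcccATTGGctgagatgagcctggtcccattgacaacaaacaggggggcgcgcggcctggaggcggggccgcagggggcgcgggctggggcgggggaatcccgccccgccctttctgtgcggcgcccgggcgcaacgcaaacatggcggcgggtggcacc
MVK promoter, chr12:109573544-109573843, plus strand: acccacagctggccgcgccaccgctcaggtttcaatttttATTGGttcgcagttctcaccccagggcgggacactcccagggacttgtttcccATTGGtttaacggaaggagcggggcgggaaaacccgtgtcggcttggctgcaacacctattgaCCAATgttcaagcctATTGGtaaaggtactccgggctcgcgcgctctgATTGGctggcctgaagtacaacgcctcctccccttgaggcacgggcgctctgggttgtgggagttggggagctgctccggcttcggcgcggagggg
ABCA1 promoter, chr9:104928106-104928405, minus strand: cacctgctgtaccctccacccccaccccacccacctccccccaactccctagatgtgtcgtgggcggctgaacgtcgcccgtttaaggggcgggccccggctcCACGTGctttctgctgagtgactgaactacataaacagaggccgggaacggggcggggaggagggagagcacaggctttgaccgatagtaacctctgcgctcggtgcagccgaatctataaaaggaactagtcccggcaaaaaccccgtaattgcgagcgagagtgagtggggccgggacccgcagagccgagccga

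A CCAAT box lay in 18 of the 29 promoters (62.1%), against 35.7% of 27305 RefSeq promoters of the same length. At least 2 CCAAT boxes lay in 13 (44.8%), against 11.3% of all promoters. By step, a CCAAT box lay in 8 of 9 promoters of the squalene and sterol arm and in 4 of 6 of the mevalonate arm, but in 2 of 6 of fatty acid synthesis. The element TCACNCCAC was found in 1 promoter, that of SREBF2, which is 3.45% of the 29 against 1.15% of all promoters. E boxes lay in 5 promoters (17.2%, against 7.43% of all), those of LSS, SC5D, SCAP, INSIG1 and ABCA1. Among the 15843 promoters of protein-coding genes, 36.4% had a CCAAT box and 12.5% at least 2. In that group 1.17% had the element TCACNCCAC and 8.88% an E box. Motif matches describe the letters of a window and do not show that a factor bound there. Only exact letters in this window were searched, so a promoter without a match may still hold a variant or a more distant site.

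**Figure D1:**
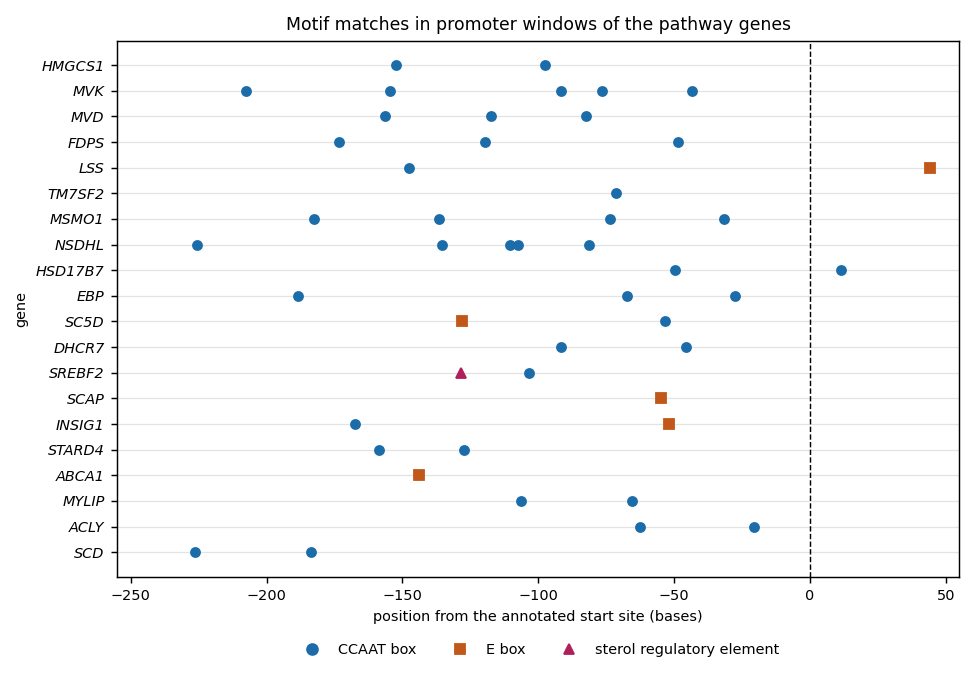
Motif matches in the promoters that held any, 1 row per gene in the order of the pathway steps, with the distance in bases from the start site on the horizontal axis and a symbol for each motif. CCAAT boxes, found in 18 promoters, crowd the rows of the mevalonate and the squalene and sterol arms, while the sterol regulatory element is marked in SREBF2 alone.

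The introns of both SREBP genes carry microRNAs of the miR-33 family, which are known to repress the ABCA1 message. Their mature sequences in RefSeq are shown with the seed, bases 2 to 8, in capitals; the seed UGCAUUG is the same in both.
hsa-miR-33a-5p, chr22:41900949-41900969, plus strand: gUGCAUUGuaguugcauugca
hsa-miR-33b-5p, chr17:17813897-17813916, minus strand: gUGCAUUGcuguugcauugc
The hairpin of miR-33a lies in an intron of SREBF2 and that of miR-33b in an intron of SREBF1 in both files. Both hairpins were listed at 0 FPKM in both libraries, and mature microRNAs were not measured here.

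The label of the knockdown was checked on its target first. PSPC1, an RNA-binding protein of paraspeckles, had 17.7 ± 0.858 FPKM in the shPSPC1 library and 31.5 ± 1.25 FPKM in the shLacZ library. The log2 ratio was -0.79, with bounds of -0.92 and -0.67, and -0.80 by estimated fragments, so PSPC1 fell by more than 1.5-fold but not by 2-fold. The recovered depth was 57100000 fragments in the shPSPC1 library and 56200000 in the shLacZ library, at which 1 FPKM over a transcript of 2000 bases was about 105 and 103 fragments. All 5 epithelial markers (KRT7, KRT8, KRT18, EPCAM and CDH1) had at least 1 FPKM in both libraries, with a summed level of 2789 FPKM in shPSPC1 and 3492 FPKM in shLacZ. Of 5 alveolar type 2 markers only ABCA3 passed 1 FPKM, at 5.92 FPKM in shPSPC1 and 6.70 FPKM in shLacZ, and the surfactant genes SFTPC, SFTPB and SFTPA1 stayed below it. No leukocyte, fibroblast, endothelial or hepatocyte marker of 5 each reached 1 FPKM in either library. Of the 5 adipocyte markers, CIDEC had 0.406 FPKM in shPSPC1 and 1.11 FPKM in shLacZ. The part of the lower epithelial marker sum in the results was not tested.

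All 34 genes had at least 1 FPKM in both libraries, so none was left out by the minimum level. Levels ran from 1.20 to 134 FPKM, with a median of 11.9 FPKM, in the shPSPC1 library, and from 1.16 to 135 FPKM, with a median of 11.4 FPKM, in the shLacZ library. ACLY had the highest level and ABCG1 the lowest in both. When the genes were ordered by level, the intervals of 17 of the 33 neighbouring pairs overlapped in each library, so those neighbours cannot be placed in order. The summed level of the 34 genes was 746 FPKM in shPSPC1 and 723 FPKM in shLacZ.

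**Figure D2:**
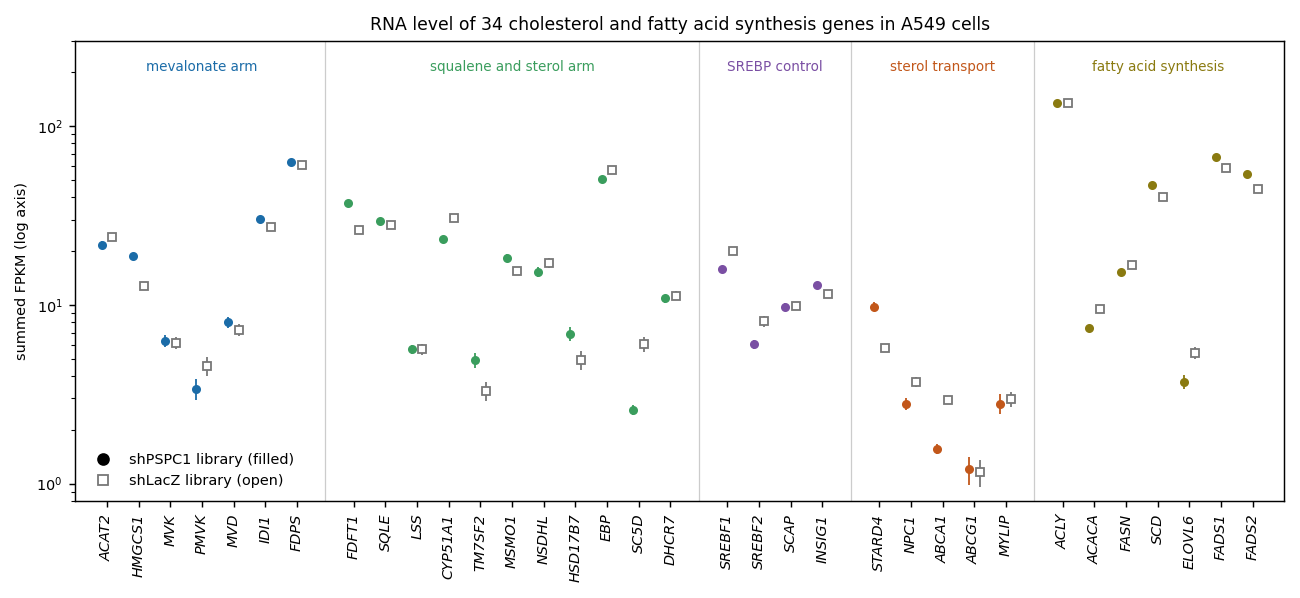
FPKM of each of the 34 genes in the shPSPC1 and the shLacZ library on a log axis, grouped by pathway step, with bars for the 95% interval within a library. Levels in both libraries span 1.16 to 135 FPKM, and the symbols of the 2 libraries lie close together for most genes, with ABCA1 and SC5D the widest apart toward shLacZ.

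None of the 34 genes passed 2-fold in either direction by summed FPKM, against 1.66% of 11468 genes that were called higher and 1.97% called lower. By estimated fragments, none passed 2-fold either, against 1.77% higher and 1.85% lower. The 1.5-fold rule called 1 gene higher by summed FPKM (STARD4; 4.33% of all genes) and 2 lower (SC5D and ABCA1; 5.42%). By estimated fragments it called none higher (3.37% of all genes) and 2 lower (NPC1 and ABCA1; 4.65%). Only ABCA1 was called by both measures, as lower, which is 1 of 34 genes beside 3.47% of all genes, and no gene was called higher by both, beside 2.27%. ABCA1 has the same single transcript in both files, so its 2 measures are equal by construction and the second adds no check. These counts lie near the background.

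Smaller differences were spread in both directions. Intervals did not overlap by both measures for 10 genes that were higher in shPSPC1 (20.8% of all genes) and for 8 that were lower (21.2%). The higher genes were HMGCS1, IDI1, FDFT1, TM7SF2, HSD17B7, INSIG1, STARD4, SCD, FADS1 and FADS2, and the lower genes were PMVK, EBP, SREBF1, NPC1, ABCA1, ACACA, FASN and ELOVL6. FDFT1, SCD and NPC1 each depend on an assembled transcript, whose values are given with each gene. The STARD4 difference rests on its annotated form, which has a level in shPSPC1 alone. Higher and lower genes together are 18 of 34 genes, beside 42.0% of all genes, and an interval within a library does not include the spread between cultures. The median log2 ratio of the 34 genes was 0.00 by summed FPKM and 0.06 by estimated fragments, beside 0.01 by either measure for 10792 genes at 1 FPKM or more in both libraries. By summed FPKM, 19 of the 34 genes lay within 0.25 of no difference on the log2 scale, beside 67.8% of all genes, and 30 lay within 0.5, beside 89.0%. By estimated fragments, 23 lay within 0.25, beside 73.0% of all genes, and 30 within 0.5, beside 91.8%.

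**Figure D3:**
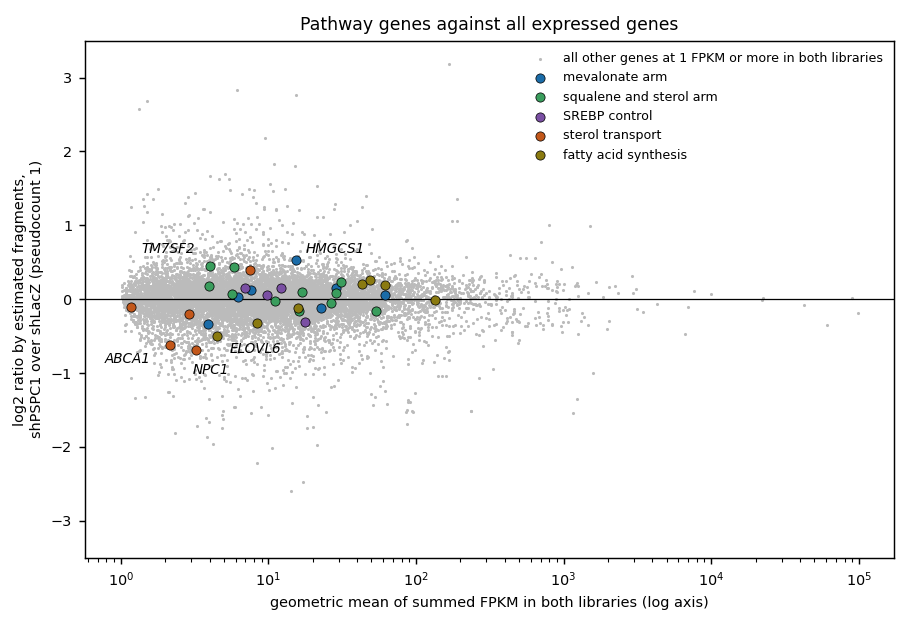
Log2 ratio by estimated fragments, shPSPC1 over shLacZ with a pseudocount of 1, against the geometric mean of summed FPKM in both libraries on a log axis, for all genes at 1 FPKM or more in both libraries, with the 34 genes coloured by pathway step. The coloured points lie inside the cloud of the other genes, between -0.69 for NPC1 and 0.53 for HMGCS1.

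In the mevalonate arm 2 of 7 genes were higher and 1 was lower beyond their intervals by both measures, and the median log2 ratio was 0.06 by each. The shares of all genes beside the counts of this and each later step are 20.8% higher and 21.2% lower. HMGCS1 (chr5:43287572-43313614, minus strand, like all gene positions below in the files' own coordinates, whose scaffold names are those of GRCh37), the cytosolic HMG-CoA synthase of the arm, had 18.9 ± 0.609 FPKM in shPSPC1 and 12.8 ± 0.50 FPKM in shLacZ, from 5673 and 3780 estimated fragments. Its log2 ratio was 0.53 by both measures, just inside the 1.5-fold limit of 0.58, which makes it the highest of the 34 by estimated fragments. When both libraries were rescaled without mitochondrially encoded genes, it was 0.62 by summed FPKM, which passed 1.5-fold. Both annotated HMGCS1 transcripts were higher in shPSPC1: the form of 11 exons had 11.1 FPKM in shPSPC1 and 8.20 FPKM in shLacZ, and the form of 10 exons had 7.81 FPKM in shPSPC1 and 4.57 FPKM in shLacZ. These forms, of 5450 and 5391 bases, differ little in length, so the 2 measures of HMGCS1 are nearly equal by construction. IDI1, which interconverts the isoprenoid units, had 30.1 ± 1.03 FPKM in shPSPC1 and 27.1 ± 0.988 FPKM in shLacZ (log2 ratio 0.15). PMVK, phosphomevalonate kinase, had 3.40 ± 0.458 FPKM in shPSPC1 and 4.55 ± 0.534 FPKM in shLacZ (log2 ratio -0.34), from 220 and 291 fragments, the fewest in this arm.

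The other 4 genes of the arm had overlapping intervals. ACAT2, the cytosolic thiolase that joins acetyl-CoA, had 21.8 FPKM in shPSPC1 and 23.8 FPKM in shLacZ. It shares 397 exon bases with TCP1 on the opposite strand, which had 113 FPKM in shPSPC1 and 120 FPKM in shLacZ, and without a known strand setting the reads of the 2 genes cannot be told apart there. Mevalonate kinase, MVK, had 6.27 FPKM in shPSPC1 and 6.14 FPKM in shLacZ. The mevalonate diphosphate decarboxylase MVD had 8.01 FPKM in shPSPC1 and 7.27 FPKM in shLacZ. FDPS, which makes farnesyl diphosphate, had 63.4 FPKM in shPSPC1 and 60.6 FPKM in shLacZ.

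In the squalene and sterol arm, 3 of 11 genes were higher and 1 was lower beyond their intervals by both measures. The median log2 ratio was 0.00 by summed FPKM and 0.08 by estimated fragments. FDFT1, squalene synthase, had 37.0 ± 1.40 FPKM in shPSPC1 and 26.2 ± 0.978 FPKM in shLacZ, a log2 ratio of 0.48 that was 0.23 by estimated fragments. In the shPSPC1 file an assembled transcript ending 376 bases short of the annotated end held 31.0 of the FDFT1 FPKM and the annotated form 5.99 FPKM, whereas the shLacZ file put all 26.2 FPKM on the annotated form. With annotated transcripts alone, the log2 ratio of FDFT1 was -1.96. TM7SF2, a sterol reductase, had 4.90 ± 0.491 FPKM in shPSPC1 and 3.31 ± 0.407 FPKM in shLacZ on the same single transcript in both (log2 ratio 0.45). HSD17B7, the ketosteroid reductase of the demethylation steps, had 6.91 ± 0.598 FPKM in shPSPC1 and 4.91 ± 0.616 FPKM in shLacZ (log2 ratio 0.42, and 0.44 by estimated fragments). HSD17B7 has a close copy, HSD17B7P2, listed at 1.66 FPKM in shPSPC1 and 1.46 FPKM in shLacZ, so its level is uncertain where reads match both. The emopamil-binding protein EBP, a sterol isomerase, had 50.5 ± 1.89 FPKM in shPSPC1 and 56.8 ± 2.01 FPKM in shLacZ (log2 ratio -0.17).

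SC5D (chr11:121163388-121184119, plus strand), the sterol desaturase near the end of the arm, gave opposite directions by the 2 measures. Its summed level was 2.59 ± 0.166 FPKM in shPSPC1 and 6.02 ± 0.584 FPKM in shLacZ, a log2 ratio of -0.97 that passed 1.5-fold, but the estimated fragments were 1002 in shPSPC1 and 822 in shLacZ, a log2 ratio of 0.18. The shLacZ file alone held an assembled SC5D transcript of 1414 bases that ended 5596 bases short of the annotated end, and it carried 4.73 of the 6.02 FPKM on 333 fragments. The annotated transcript of 6946 bases had 2.59 FPKM in shPSPC1 and 1.28 FPKM in shLacZ. SC5D therefore has no direction that holds across both measures.

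CYP51A1, lanosterol demethylase, is a like case. It had 23.3 ± 0.839 FPKM in shPSPC1 and 30.4 ± 1.19 FPKM in shLacZ (log2 ratio -0.37), but 3975 and 4063 estimated fragments, a log2 ratio of -0.05 with overlapping intervals. An assembled transcript of 3 exons and 2139 bases, present in the shLacZ file alone, carried 60.0% of the CYP51A1 FPKM there, and the main annotated form of 10 exons held 81.7% in shPSPC1 and 29.0% in shLacZ. MSMO1, the sterol methyl oxidase, had 18.3 FPKM in shPSPC1 and 15.5 FPKM in shLacZ with intervals apart (log2 ratio 0.22), but a log2 ratio of 0.10 with overlapping intervals by estimated fragments. With annotated transcripts alone, the log2 ratio was 0.88 for CYP51A1 and -0.98 for MSMO1. In MSMO1 an assembled form of 6 exons, found in the shPSPC1 file alone, carried 59.5% of the level, and the annotated form held 40.5% in shPSPC1 and 100% in shLacZ. DHCR7, the last reductase on the Kandutsch-Russell route, had 10.9 FPKM in shPSPC1 and 11.3 FPKM in shLacZ and 1551 fragments in each. An assembled DHCR7 form of 9 exons held 42.8% of its FPKM in shLacZ and had no counterpart in the shPSPC1 file.

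The remaining 3 genes of the arm had overlapping intervals by both measures. Squalene epoxidase, SQLE, had 29.6 FPKM in shPSPC1 and 27.9 FPKM in shLacZ. LSS, which closes the sterol ring, had 5.65 FPKM in shPSPC1 and 5.66 FPKM in shLacZ. NSDHL, which removes a carboxyl carbon in the demethylation steps, had 15.3 FPKM in shPSPC1 and 17.1 FPKM in shLacZ.

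**Figure D4:**
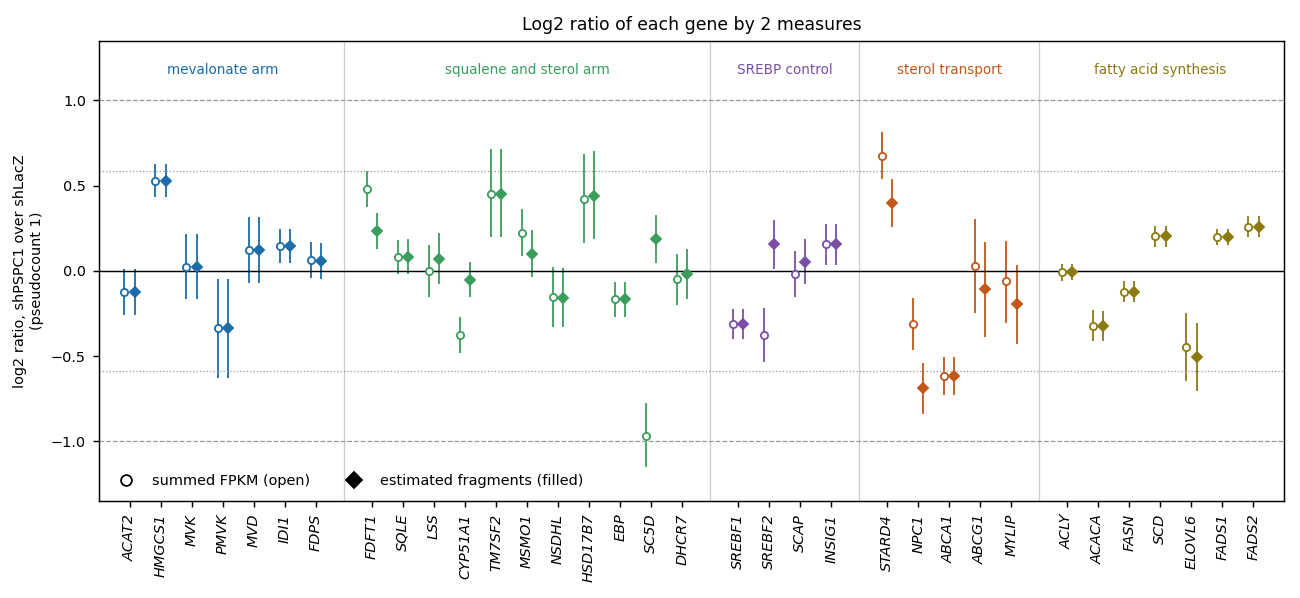
Log2 ratios of the 34 genes, shPSPC1 over shLacZ, by summed FPKM and by estimated fragments, grouped by pathway step, with bars for the bounds from the intervals within libraries and lines at the 1.5-fold and 2-fold limits. The 2 measures lie far apart for SC5D (-0.97 and 0.18) and SREBF2 (-0.38 and 0.16), and together for HMGCS1 (0.53) and ABCA1 (-0.62). ABCA1 has the same single transcript in both files, which makes its 2 measures equal by construction. The HMGCS1 transcripts are of nearly the same length, so its 2 measures are nearly equal by construction too.

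Among the 4 control genes, 1 was higher and 1 was lower beyond the intervals by both measures, and the median log2 ratio was -0.16 by summed FPKM and 0.10 by estimated fragments. SREBF1 had 15.9 ± 0.536 FPKM in shPSPC1 and 20.0 ± 0.615 FPKM in shLacZ (log2 ratio -0.31 by both measures), from 4323 and 5356 fragments. Its 2 annotated forms were both lower in shPSPC1, the form of 19 exons at 13.7 FPKM in shPSPC1 and 16.5 FPKM in shLacZ, and the form of 20 exons at 2.22 FPKM in shPSPC1 and 3.45 FPKM in shLacZ. These forms, of 4911 and 5001 bases, also differ little in length, so the agreement of the 2 measures is no second check. SREBF1 shares 105 exon bases with RAI1 on the opposite strand, which had 3.68 FPKM in shPSPC1 and 4.03 FPKM in shLacZ. INSIG1, which retains SCAP in the endoplasmic reticulum and is itself an SREBP target, had 12.9 ± 0.564 FPKM in shPSPC1 and 11.5 ± 0.536 FPKM in shLacZ (log2 ratio 0.16).

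SREBF2, which encodes the SREBP that mainly drives cholesterol synthesis (chr22:42229106-42302375, plus strand), had no direction that held by both measures. Its summed level was 6.01 ± 0.350 FPKM in shPSPC1 and 8.12 ± 0.548 FPKM in shLacZ (log2 ratio -0.38), while the estimated fragments were 1680 in shPSPC1 and 1462 in shLacZ (log2 ratio 0.16), and intervals did not overlap by either. A transcript of 10 exons that ended 27630 bases short of the annotated end was assembled from the shLacZ reads alone and held 41.0% of the SREBF2 level there. In the shPSPC1 file a form of 19 exons ran 1085 bases past the annotated end and had 4.15 FPKM, beside 1.86 FPKM for the annotated form. SCAP had 9.70 FPKM in shPSPC1 and 9.83 FPKM in shLacZ with overlapping intervals by both measures, although an assembled form of 23 exons held 66.9% of it in shPSPC1 alone and a form of 21 exons 41.1% in shLacZ alone.

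A change of at least 30 points in a transcript's share of the gene, in genes of at least 5 FPKM in both libraries, was met in 5 of the 25 genes at that level (20.0%, beside 23.4% of 7105 genes), CYP51A1, MSMO1, DHCR7, SREBF2 and SCAP. SC5D and STARD4 lay outside that rule, SC5D for its low level and STARD4 because its forms share their introns. In 7 of the 34 genes (20.6%) more than 0.2 of the level lay on intron chains found in 1 file only, beside 25.0% of all genes.

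**Figure D5:**
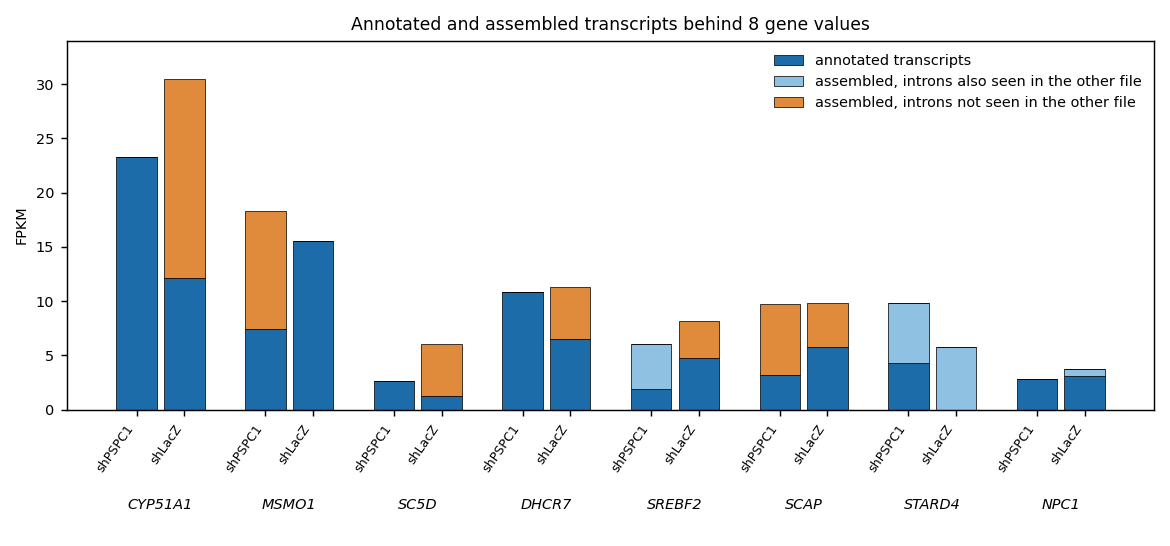
FPKM of 8 genes in the shPSPC1 (left bar) and the shLacZ library (right bar), divided into annotated transcripts, assembled transcripts whose whole chain of introns the other file also has, and assembled transcripts whose chain it lacks. Assembled forms of CYP51A1, SC5D, DHCR7 and SREBF2 with a chain of their own stand in the shLacZ bar alone, that of MSMO1 in the shPSPC1 bar alone, and SCAP has such a form in each. Single introns of such a chain can be annotated ones, as 21 of 22 are in the SCAP form of 23 exons.

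In sterol transport 1 of 5 genes was higher and 2 were lower beyond their intervals by both measures, with a median log2 ratio of -0.06 by summed FPKM and -0.20 by estimated fragments. ABCA1 (chr9:107543283-107690527, minus strand), the exporter that loads cholesterol onto apolipoprotein A-I, had 1.57 ± 0.103 FPKM in shPSPC1 and 2.94 ± 0.142 FPKM in shLacZ. ABCA1 fell by 0.62 on the log2 scale by both measures, on a single annotated transcript of 50 exons in both files. That single transcript makes the 2 measures equal by construction. The ratio of its FPKM without the added 1 was 0.534, from 928 fragments in shPSPC1 and 1711 in shLacZ. When both libraries were rescaled without mitochondrially encoded genes, the log2 ratio of ABCA1 was -0.55, which no longer passed 1.5-fold. ABCG1, an exporter to high-density lipoprotein, had 1.20 ± 0.213 FPKM in shPSPC1 and 1.16 ± 0.201 FPKM in shLacZ with overlapping intervals. MYLIP, which marks lipoprotein receptors for degradation, had 2.80 ± 0.355 FPKM in shPSPC1 and 2.97 ± 0.292 FPKM in shLacZ, also overlapping. Of these 3 known LXR targets, ABCA1 alone passed the 1.5-fold rule, and the receptors NR1H2 (20.1 FPKM in shPSPC1 and 20.1 FPKM in shLacZ) and NR1H3 (3.28 FPKM in shPSPC1 and 3.18 FPKM in shLacZ) had overlapping intervals.

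STARD4 (chr5:110834022-110848157, minus strand), a carrier of cholesterol between membranes, had 9.78 ± 0.546 FPKM in shPSPC1 and 5.74 ± 0.311 FPKM in shLacZ. STARD4 passed 1.5-fold by summed FPKM with a log2 ratio of 0.68 but not by estimated fragments, which were 1869 in shPSPC1 and 1368 in shLacZ (log2 ratio 0.40). A form that runs 2125 bases past the annotated end in the shPSPC1 file and 2071 bases past it in the shLacZ file had 5.53 FPKM in shPSPC1 and 5.74 FPKM in shLacZ. The annotated STARD4 form had 4.25 FPKM in shPSPC1 and was listed at 0 in shLacZ. With annotated transcripts alone the log2 ratio of STARD4 was therefore 2.39. STARD4, CYP51A1 and IDI1 also share exon bases with antisense genes, which were listed at 0 in both libraries. Lysosomal cholesterol leaves through NPC1, which had 2.80 ± 0.206 FPKM in shPSPC1 and 3.72 ± 0.243 FPKM in shLacZ, a log2 ratio of -0.31 that was -0.69 by estimated fragments. That larger NPC1 difference rests on a transcript of 15379 bases in the shLacZ file alone, which had 0.622 FPKM on 532 fragments, ran 10212 bases past the annotated end and covered 1091 exon bases of RMC1 on the opposite strand. The annotated NPC1 transcript had 2.80 ± 0.206 FPKM in shPSPC1 and 3.10 ± 0.235 FPKM in shLacZ, with overlapping intervals.

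In fatty acid synthesis 3 of 7 genes were higher and 3 were lower beyond their intervals by both measures, and the median log2 ratio was -0.01 by each. The higher ones were SCD, FADS1 and FADS2. SCD, which makes oleate from stearate, had 46.5 ± 0.784 FPKM in shPSPC1 and 40.3 ± 1.12 FPKM in shLacZ (log2 ratio 0.20). An assembled piece of 4426 bases inside SCD in the shLacZ file, which shares no intron with it, had 8.91 FPKM. With that piece SCD had 46.5 FPKM in shPSPC1 and 49.2 FPKM in shLacZ, and the log2 ratio was -0.08, so the SCD direction depends on it. FADS1, the delta-5 desaturase, had 66.7 ± 1.05 FPKM in shPSPC1 and 58.0 ± 0.985 FPKM in shLacZ (log2 ratio 0.20). The delta-6 desaturase FADS2, its neighbour on chromosome 11, had 53.6 ± 1.12 FPKM in shPSPC1 and 44.7 ± 1.03 FPKM in shLacZ (log2 ratio 0.26).

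Of the other 4 genes, ACACA, FASN and ELOVL6 were lower beyond their intervals. ACLY, which makes cytosolic acetyl-CoA from citrate, had 134 ± 2.60 FPKM in shPSPC1 and 135 ± 1.90 FPKM in shLacZ, with overlapping intervals. ACACA, acetyl-CoA carboxylase, had 7.38 ± 0.272 FPKM in shPSPC1 and 9.47 ± 0.319 FPKM in shLacZ (log2 ratio -0.32). Its transcript from the upstream start site had 1.90 FPKM in shPSPC1 and 3.31 FPKM in shLacZ, and the one from the downstream start site had 5.48 FPKM in shPSPC1 and 6.16 FPKM in shLacZ. FASN, fatty acid synthase, had 15.3 ± 0.359 FPKM in shPSPC1 and 16.7 ± 0.378 FPKM in shLacZ (log2 ratio -0.12). ELOVL6, which lengthens palmitate, had 3.71 ± 0.346 FPKM in shPSPC1 and 5.41 ± 0.417 FPKM in shLacZ (log2 ratio -0.44, and -0.50 by estimated fragments). With an assembled piece in its exons that the shPSPC1 file alone holds, the log2 ratio of ELOVL6 was -0.26 by both measures.

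The wider pathway was followed through 38 further genes, among them other acyl-CoA synthetases, elongases and regulators. Intervals did not overlap by both measures for 8 of these 38 that were higher in shPSPC1 (20.8% of all genes) and 12 that were lower (21.2% of all genes), and 18 did neither. Their median log2 ratio was 0.00 by both measures. ACSL5, an acyl-CoA synthetase, was the only gene past 1.5-fold by both, as lower, beside 3.47% of all genes. It had 0.392 ± 0.136 FPKM in shPSPC1 and 1.16 ± 0.186 FPKM in shLacZ (log2 ratio -0.64, and -0.79 by estimated fragments), a level near the minimum of 1 FPKM. By summed FPKM alone GGPS1, which makes geranylgeranyl diphosphate, had 18.6 FPKM in shPSPC1 and 8.31 FPKM in shLacZ (log2 ratio 1.07), but the log2 ratio was 0.23 by estimated fragments. ACSL4 had 20.8 FPKM in shPSPC1 and 33.6 FPKM in shLacZ (log2 ratio -0.67, and -0.23 by estimated fragments). HACD2, a dehydratase of chain elongation, had 19.6 FPKM in shPSPC1 and 16.9 FPKM in shLacZ (log2 ratio 0.20), but -1.59 by estimated fragments. These 3 genes were named after their values were seen.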

How the data were processed

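RNA of 2 A549 libraries, shPSPC1 and shLacZ, 1 per group, was analysed. Tools listed in the submitters' processing notes, without their roles, are Cufflinks 2.1.1, TopHat2 2.0.7 and CASAVA 1.8.2. The deposited files give an FPKM value and 95% bounds for each transcript, which the authors computed. Scaffold names are those of GRCh37, while the sources used here do not state the build. Transcripts were joined to genes by RefSeq identifier, and stranded assembled transcripts by a shared intron; transcripts without a strand were left out. A gene's level is the sum of its FPKM, and its half-width the square root of the sum of squared half-widths. Depth was recovered from the intervals of transcripts that lie alone, whose fragments were whole within 0.02 for 94.5% in shPSPC1 and 94.2% in shLacZ, and gives the estimated fragments. The calculation was tested on simulated data. Scripts used Python 3.11.15 with numpy 2.4.6. All 34 genes are named. Further pathway genes are named where they pass the 1.5-fold rule by both measures, with exceptions stated. The genes and lists were chosen with earlier results of these data known. Alternatives changed the gene value, the transcripts used, the pseudocount, the scaling, the minimum level and the condition on intervals.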

Additional observations from a re-analysis of the deposited data

Results flagged for a closer look

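Assembled pieces without a strand were left out of all gene levels, and those within the genes' spans held 258 fragments in the shPSPC1 library (11 pieces) and 87 in the shLacZ library (4 pieces). Over the whole genome the shPSPC1 file also held more such pieces, 36255 beside 29208 in the shLacZ file. In HMGCS1 they stood above the level of the shLacZ library, with 181 fragments in 7 pieces in shPSPC1 and 11 fragments in 1 piece in shLacZ, all outside its exons. In SREBF1 there were 35 fragments in 1 piece in shPSPC1 and 0 in shLacZ, again outside the exons, while the summed SREBF1 level was lower in shPSPC1. The 0 of SREBF1 in shLacZ means that no such piece was listed there. It sets no limit on fragments that were not assembled into a piece. The part of these pieces in the gene levels was not tested.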

How the results depend on the processing

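No paired analysis was possible because each group has 1 library, and for the same reason no replicate could be left out. The median log2 ratio of the 34 genes lay between -0.011 and 0.082 and that of the mevalonate arm between 0.056 and 0.16 over all alternatives run, and the log2 ratio of ABCA1 between -0.86 and -0.55. Members past 1.5-fold and higher, 1 as reported, numbered 0 by estimated fragments, 2 by the most abundant transcript, 5 with annotated transcripts alone, 5 with intron chains present in both files and 2 after rescaling without mitochondrially encoded genes. Those lower, 2 as reported, numbered 5 with annotated transcripts alone, 3 with shared intron chains, 1 after that rescaling and 0 among genes at 5 FPKM or more in both libraries. At 2-fold, annotated transcripts alone gave 1 higher (STARD4, log2 ratio 2.39) and 2 lower (FDFT1, -1.96, and SREBF2, -1.02). A pseudocount of 0.1 gave 1 lower (SC5D, -1.19). The median log2 ratio of the control genes, -0.16 as reported, was 0.10 by estimated fragments, -0.013 by the most abundant transcript and -0.50 with annotated transcripts alone. That of the squalene and sterol arm, 0.00 as reported, was 0.16 by the most abundant transcript, 0.16 with annotated transcripts alone and 0.45 with shared intron chains. For fatty acid synthesis, -0.01 as reported, it was 0.10 by the most abundant transcript, -0.080 with assembled pieces by 0.5 of their exon bases, 0.088 after rescaling and 0.095 at 5 FPKM or more. For sterol transport, -0.06 as reported, it was -0.31 with shared intron chains and 0.68 at 5 FPKM or more, where STARD4 alone remains. SC5D reversed to 0.18 by estimated fragments, 0.65 with annotated transcripts alone and 0.65 with shared intron chains, and STARD4 to -0.046 by the most abundant transcript. Genes that had not passed 1.5-fold turned too: with annotated transcripts alone FDFT1 was -1.96, and with them or with shared intron chains CYP51A1 was 0.88, MSMO1 -0.98 and DHCR7 0.67, while SREBF2 was 0.16 by estimated fragments and 0.28 with shared intron chains. The genes that moved to the other direction numbered 2 by estimated fragments, 7 by the most abundant transcript, 5 with annotated transcripts alone, 6 with shared intron chains, 1 with assembled pieces and 1 after rescaling. PSPC1 had a log2 ratio of -0.58 by the most abundant transcript and -2.46 with annotated transcripts alone. An assembled form held 100% of the PSPC1 level in shPSPC1 and 85.8% in shLacZ. The value of -2.46 thus rests on an annotated form of 4.49 FPKM in shLacZ. Rescaling moved the median of all genes to 0.09. Except where a value above shows the transcripts behind a shift, the cause was not tested.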

Other observations

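Some genes of the wider pathway, named after their values were seen, differed beyond their intervals, by both measures unless stated, without passing 1.5-fold. TMEM97, a sterol-regulated membrane protein that binds NPC1, had 66.2 ± 1.39 FPKM in shPSPC1 and 52.0 ± 1.32 FPKM in shLacZ (log2 ratio 0.34). NPC2, the soluble partner of NPC1 in the lysosome, had 68.7 ± 2.56 FPKM in shPSPC1 and 94.2 ± 3.02 FPKM in shLacZ (log2 ratio -0.45). SCARB1, a receptor for high-density lipoprotein, had 11.0 ± 0.546 FPKM in shPSPC1 and 14.4 ± 0.734 FPKM in shLacZ (log2 ratio -0.36). ELOVL1, an elongase of very long chains, had 33.2 ± 1.47 FPKM in shPSPC1 and 46.5 ± 1.79 FPKM in shLacZ (log2 ratio -0.48). SCD5, a second stearoyl-CoA desaturase, had 3.25 ± 0.278 FPKM in shPSPC1 and 4.97 ± 0.347 FPKM in shLacZ (log2 ratio -0.49), whereas SCD itself had a log2 ratio of 0.20, or -0.08 with its assembled piece. FADS3, a further member of the FADS family, had 6.96 ± 0.550 FPKM in shPSPC1 and 9.28 ± 0.639 FPKM in shLacZ (log2 ratio -0.37), against the higher levels of FADS1 and FADS2. HSD17B12, a reductase of chain elongation, had 39.5 ± 1.08 FPKM in shPSPC1 and 35.1 ± 1.02 FPKM in shLacZ (log2 ratio 0.17). The elongase ELOVL5 had 41.9 ± 1.02 FPKM in shPSPC1 and 42.0 ± 1.32 FPKM in shLacZ, with overlapping intervals, but a log2 ratio of 0.17 with intervals apart by estimated fragments. The malic enzyme ME1, which supplies NADPH, had 15.8 ± 0.575 FPKM in shPSPC1 and 13.1 ± 0.654 FPKM in shLacZ (log2 ratio 0.26).

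ABCG1 transcripts began at different places in the files. An assembled form with a start upstream of the main one had 0.467 ± 0.127 FPKM in shPSPC1, on 82 fragments, and none of that structure stood in the shLacZ file. Forms running 3445 bases past the annotated end had 0.122 and 0.0886 FPKM in shLacZ, on 43 and 31 fragments, and stood in the shLacZ file alone.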
